A study of Rattus norvegicus with 6 samples.

Results

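Prima1 encodes the membrane anchor of acetylcholinesterase. It was examined with 6 other genes of acetylcholine breakdown and reception, Ache, Bche, Colq, Chrm1, Chrm3 and Chrna7, in rat kidney. The members were every non-control probe whose RefSeq accession belongs to 1 of these 7 genes, which gave 8 probes of the 30367 on the array and 7 genes of 15168 with a name. Prima1 had 2 probes and every other gene had 1. Prima1 was chosen by its measured difference in signal between the groups, and the rule names that contrast, so the values of all 8 probes are given as a description, and no test of them is used.

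Total RNA came from 3 kidney samples of diabetic rats and 3 of rats given Bailing Capsule, a fermented Cordyceps preparation, all at 21 weeks of age. The labels number the samples as replicates and say no more of their origin, so p-values measure only the spread between these samples. The labels used here give no strain, sex, dose or way of inducing diabetes, and do not say whether the Bailing Capsule rats were diabetic. The study asks how the preparation affects gene expression in rat kidney. RNA was labelled with Cy3 and read on Agilent one-colour arrays. In such tissue RNA, fewer cells of a type and less RNA per cell cannot be told apart.

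Acetylcholine is the transmitter of motor and parasympathetic nerves, and some epithelial and immune cells also make it. Acetylcholinesterase, the product of Ache, hydrolyses it, and butyrylcholinesterase, the product of Bche, is a related enzyme with a broader choice of substrates. PRiMA, the product of Prima1, is a single-pass membrane protein that holds tetramers of these enzymes at the cell surface, mainly in brain and muscle. ColQ is a collagen-like tail that ties the enzymes to basement membrane. Chrm1 and Chrm3 encode muscarinic receptors coupled to phospholipase C, and Chrna7 encodes a nicotinic channel subunit.

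The arrays fell into 2 sets by scan time, which are taken here as 2 slides. No array position repeated within a set. On slide 1 were all 3 Bailing Capsule kidneys together with diabetic replicate 1, and diabetic replicates 2 and 3 were on slide 2. The scanner software marked 65% to 73.7% of the probes of an array as well above background, and no spot was saturated. All 6 tested proximal tubule markers, 6 collecting duct markers, 5 podocyte markers and the 4 of thick limb and distal tubule were well above background on all 6 arrays. Values below are log2 signals relative to the 75th percentile of their own array, so a value of 0 is that percentile. Differences are Bailing Capsule minus diabetic.

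The 2 Prima1 probes, both annotated with the RefSeq transcript NM_001108721, gave different results. With probe A_64_P067000 the log2 signal was -2.92, -2.44 and -2.45 in diabetic replicates 1 to 3, and 2.43, 1.97 and 1.55 in Bailing Capsule replicates 1 to 3. All Bailing Capsule arrays were above all diabetic arrays, and the probe was well above background on every array. The group means were -2.60 ± 0.27 and 1.99 ± 0.44 (SD, n = 3), a difference of 4.59, or 24.1-fold. In scanner units before scaling, the signals were 36.1, 41.0 and 70.6 in diabetic kidneys and 1203, 1472 and 694 in Bailing Capsule kidneys.

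With probe A_44_P262958 the log2 signal was -0.65, -0.085 and -0.15 in diabetic kidneys and -0.18, -0.66 and -0.86 in Bailing Capsule kidneys. This probe was also well above background on all 6 arrays, and its groups overlapped. The means were -0.30 ± 0.31 and -0.57 ± 0.35 (SD, n = 3), a difference of -0.27 that is smaller than the SD of either group. Whether the kidneys held more Prima1 RNA with Bailing Capsule therefore depends on the probe read. A rise was seen with 1 probe and not with the other. The authors' deposited values, normalized in another way, gave 4.69 for A_64_P067000 and -0.23 for A_44_P262958.

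The log2 ratio of the probes within an array does not depend on a scaling that shifts all log2 signals of an array equally. Taken as A_64_P067000 minus A_44_P262958, it was -2.27, -2.36 and -2.30 in diabetic kidneys, and 2.61, 2.64 and 2.41 in Bailing Capsule kidneys. The ratio had 1 narrow range in each group, and the ranges lay far apart. Its mean went from -2.31 ± 0.045 to 2.55 ± 0.13 (SD, n = 3), a shift of 4.86, against a pooled SD within groups of 0.095. Arrays of 1 group thus differed little in the balance of the probes even where each probe's own signal differed. With normexp and quantile normalization the shift was smaller, with differences of 3.47 for A_64_P067000 and -0.26 for A_44_P262958. Diabetic replicate 1, at -2.27, shared a slide with the Bailing Capsule arrays. In the main scaling the shift within slide 1 was 4.82, which rests on that 1 diabetic array. The part of slide in the shift was not tested.

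**Figure D1:**
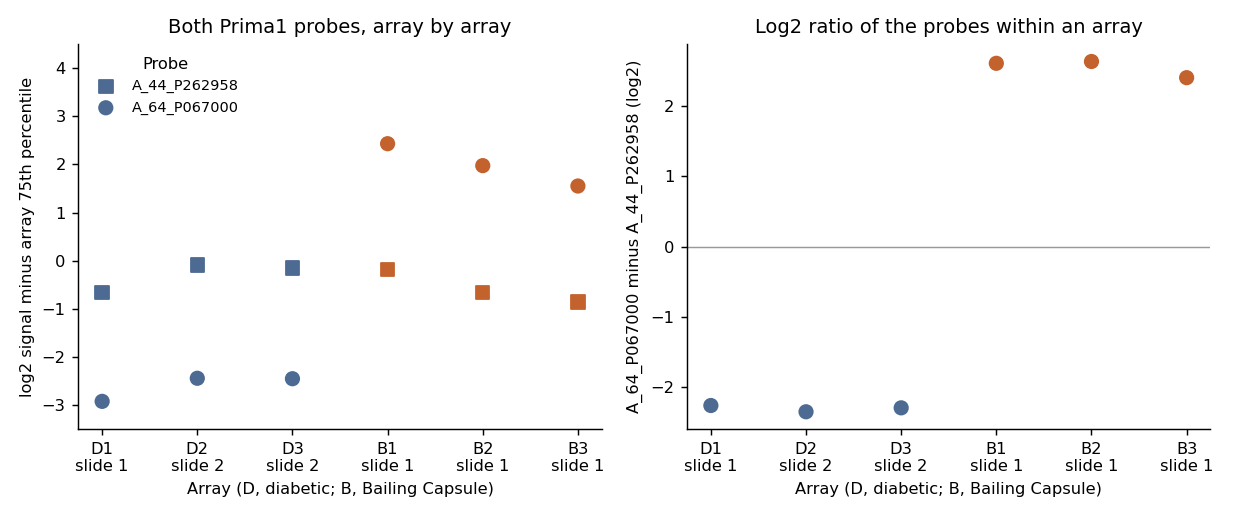
Prima1 on each array. The left panel plots the log2 signal of both probes relative to the array's 75th percentile and the right panel the log2 ratio of the probes, with the slide of each array named under it. Blue points are diabetic and orange points Bailing Capsule kidneys. The squares (A_44_P262958) overlap between groups, the circles (A_64_P067000) do not, and the ratio lies near -2.31 in diabetic and near 2.55 in Bailing Capsule kidneys.

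Each member probe was printed as 1 spot per array, so no repeat spot measures its technical error. Probes printed at 5 or more spots, with a mean signal within 0.5 log2 units of A_64_P067000 on the same array, had a median SD between spots of 0.065 to 0.11. For A_44_P262958 it was 0.049 to 0.075. The spread of the probe ratio within groups was of this order, and its shift between groups was far larger. That shift holds the difference by which Prima1 was chosen, so its size is a description. No member spot was marked as an outlier on any array.

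Probes of 1 accession seldom differed this much. Prima1 was chosen by its measured difference, so its place in this ranking is a description and no support for the rise. There were 1241 accessions with several probes that were all well above background on all 6 arrays. The gap between their largest and smallest group difference had a median of 0.20 and a 99th percentile of 1.26. Prima1 had the widest gap, 4.86. The next was Crygf, a lens crystallin gene, at 2.02, and then RT1-Db1, an MHC class II chain gene, at 1.69, both named after their values were seen. The pooled SD of the ratio within groups, 0.095 for Prima1, had a median of 0.37 over these accessions.

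**Figure D2:**
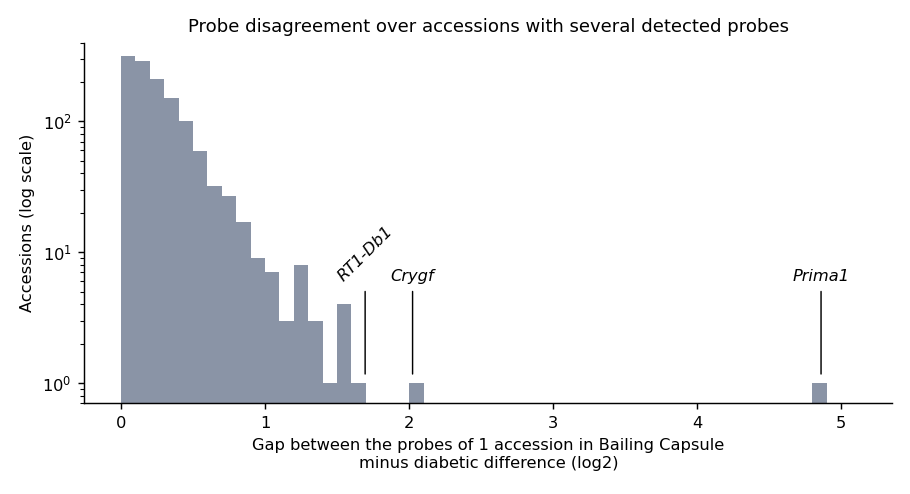
Histogram over 1241 RefSeq accessions of the gap, on the log2 scale, between their probes in the Bailing Capsule minus diabetic difference. The vertical axis is logarithmic. Prima1, chosen by its measured difference, lies at 4.86, with Crygf next at 2.02 and RT1-Db1 at 1.69.

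The gene table used for names, of assembly GRCr8, lists 2 transcripts of Prima1, the curated NM_001108721 and the predicted XM_006240495. The sequences of the probes were not used here, so the part of the transcript that each probe reads was not analysed. The array's own annotation names the older build rn4, and no coordinates are given.

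The rise of A_64_P067000 was the largest among the 19871 tested probes, and the next was 3.56. By size it ranked 5, behind 4 falls. A probe was tested where it was well above background on all 3 arrays of at least 1 group. Of the 8 member probes 4 were tested, both of Prima1 and those of Ache and Chrm3. In the limma fit over all probes, 1 of these 4, A_64_P067000, was among those with an adjusted p under 0.05, beside 0.292% of all tested probes. Groups did not overlap for 3 of the 8 probes, A_64_P067000 and those of Bche and Colq, beside 11.8% of tested probes, and 1 of these 3 was tested. Nothing is read from these counts, since the contrast chose the members.

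The enzymes that PRiMA holds were dim in these kidneys. Ache, the main hydrolase of acetylcholine, had -3.97, -3.10 and -3.52 in diabetic kidneys and -3.22, -4.36 and -3.87 in Bailing Capsule kidneys. It was well above background on every array, with signals of 16.2 to 33.7 scanner units, and the groups overlapped. The means were -3.53 ± 0.44 and -3.82 ± 0.57 (SD, n = 3), a difference of -0.29 that is within the spread of either group. Its largest distance between any 2 arrays was thus far below the difference that A_64_P067000 showed for Prima1.

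Bche, which encodes butyrylcholinesterase, reached the well-above-background mark on 0 of 3 diabetic arrays and on 2 of 3 Bailing Capsule arrays. Its log2 signal was -5.90, -6.96 and -6.48 in diabetic kidneys and -4.88, -4.98 and -5.58 in Bailing Capsule kidneys. The Bailing Capsule values lay above the diabetic values without overlap, at 1.79 to 11.9 scanner units over both groups. The measured means were -6.45 ± 0.53 and -5.15 ± 0.37 (SD, n = 3). With the diabetic arrays raised to their lowest well-above-background signals, the Bailing Capsule mean of Bche was 1.18-fold higher. In that mean 2 of 3 arrays were measured above background. This fold is not a strict lower limit. Bailing Capsule replicate 1, at -4.88, was not flagged, though the lowest flagged signal on that array was -4.95. The fold holds for the main processing only: with normexp the difference was 0.12 in place of 1.30. Liver is a main source of butyrylcholinesterase. The summed level of 7 liver markers was 1.47 to 2.10 in diabetic and 0.56 to 0.80 in Bailing Capsule kidneys. Its brightest parts were Apoc3 (means 1.05 and 0.13) and Fgb (0.18 and -1.56), while Ttr and Ahsg overlapped between groups. Of the 7 markers 5 were well above background on all 6 arrays and Ahsg on none. The part of liver RNA in the Bche result was not tested.

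Colq, the collagen tail, was well above background on diabetic replicates 1 and 2 and Bailing Capsule replicate 2. Its log2 signal was -5.37, -4.03 and -4.97 in diabetic kidneys and -6.16, -5.46 and -7.59 in Bailing Capsule kidneys. The groups did not overlap, though the dimmest diabetic and the brightest Bailing Capsule array, at -5.37 and -5.46, nearly met. The means were -4.79 ± 0.68 and -6.40 ± 1.08 (SD, n = 3), a difference of -1.61 that fell to -0.10 with normexp. At these signals, 1.23 to 13.6 scanner units, repeated spots of like brightness had a median SD of 0.20 to 0.63, so the size of the difference is imprecise. ColQ is best known from the neuromuscular junction. The 5 skeletal muscle markers on the array summed to -1.97 to -1.83 in diabetic and -2.13 to -1.77 in Bailing Capsule kidneys, which overlap, and 2 of them were well above background on no array.

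Of the 3 member receptor genes only Chrm3 was measured well above background throughout. The log2 signal of Chrm3, the M3 muscarinic receptor of glands and smooth muscle, was -0.22, -0.36 and -0.49 in diabetic kidneys and -0.14, -0.75 and -0.59 in Bailing Capsule kidneys. It was well above background on all 6 arrays, and the groups overlapped. The means were -0.36 ± 0.14 and -0.49 ± 0.32 (SD, n = 3), and the difference of -0.13 lay within the SD of either group. Repeated spots of like brightness had a median SD of 0.051 to 0.076, less than the SD between samples.

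Chrm1, the M1 muscarinic receptor, was well above background only on diabetic replicate 3. Its log2 signal was -7.74, -5.16 and -4.01 in diabetic kidneys and -7.0, -7.37 and -6.20 in Bailing Capsule kidneys. The groups overlapped, and the diabetic SD of 1.91 exceeded the difference of -1.22. With signals mostly at background, no fold is given.

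Chrna7, the alpha7 nicotinic subunit, was not well above background on any of the 6 arrays. Its log2 signal ran from -7.79 to -5.35 in diabetic and from -7.86 to -5.74 in Bailing Capsule kidneys, and no fold is given. For Chrm1 and Chrna7 the arrays thus gave no usable level in either group, apart from Chrm1 in diabetic replicate 3.

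**Figure D3:**
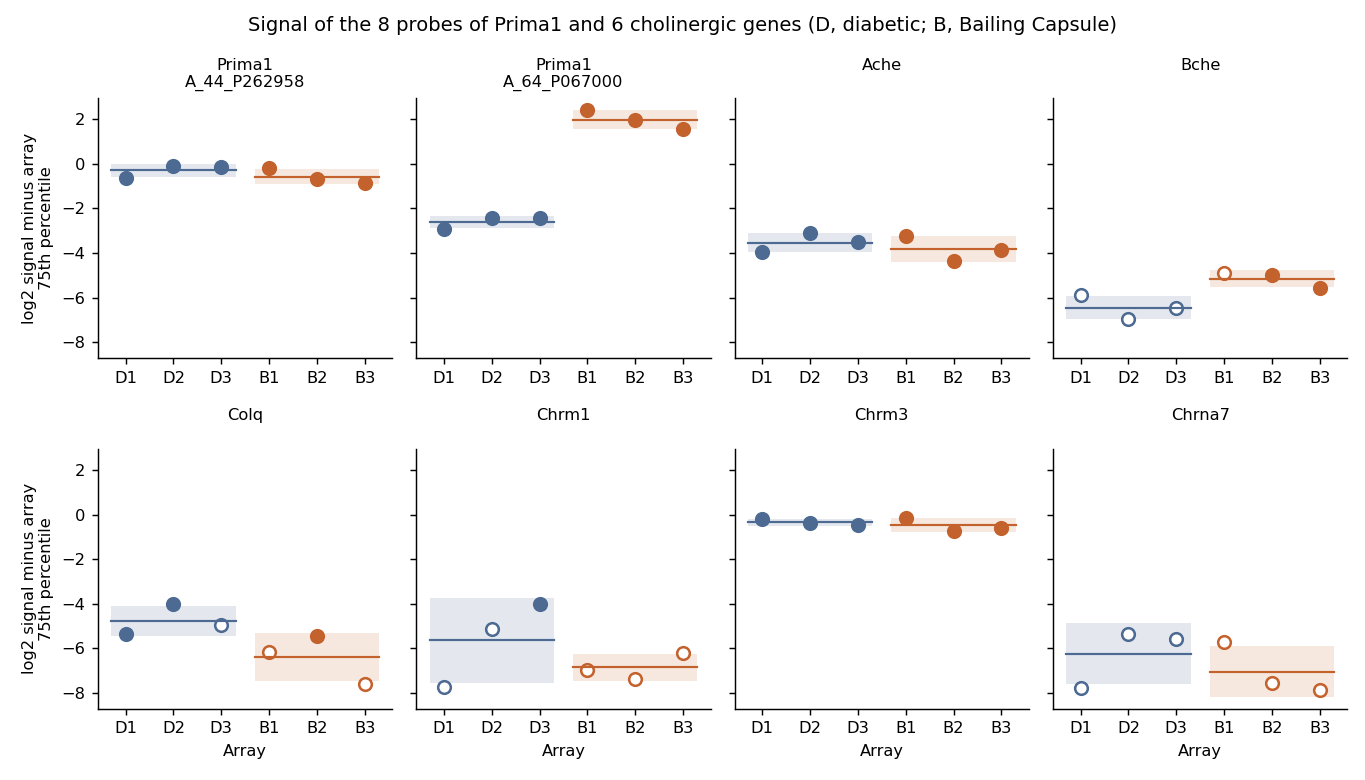
Log2 signal of each member probe on each array, relative to the array's 75th percentile. Filled points were well above background and open points were not. Lines are group means and bands are 1 SD, with 3 arrays per group, blue for diabetic (D) and orange for Bailing Capsule (B). A_64_P067000 of Prima1 separates the groups by 4.59, while the other probe of Prima1, Ache and Chrm3 overlap and the remaining 4 probes lie mostly at background.

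Genes with the signal pattern most like A_64_P067000 were found by Pearson correlation over the 6 arrays, among named tested probes. The closest 5 were Bmerb1 (r = 0.993), Strn (0.989), Pmepa1 (0.987), Hspbap1 (0.986) and Angpt1 (0.986). These 5 probes were higher in Bailing Capsule kidneys without overlap, as a gene that matches a difference between groups must be. Angpt1 encodes a ligand of the endothelial receptor Tie2, Pmepa1 an inhibitor of TGF-beta signalling and Strn a scaffold of a protein phosphatase. Their differences, 1.13 for Angpt1, 1.15 for Pmepa1 and 0.33 for Strn, were much smaller than that of A_64_P067000. Hspbap1 had 1.39 and Bmerb1 1.39 with the matching probe, but the further probe of Bmerb1, well above background on all 6 arrays, had 0.13 with overlapping groups. The arrays share 2 slides and scaling, and no p is given.

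Other genes of acetylcholine and choline biology were examined as lists that hold none of the 7 members. Of 80 genes 71 had a named probe, with 81 probes, of which 49 probes of 46 genes were tested. limma called 0 higher and 1 lower, the nicotinic subunit gene Chrna2, beside 0.116% and 0.176% of all tested probes. At an unadjusted p under 0.05 there were 7 of the 49, beside 7.73% of all tested probes. Groups did not overlap for 9 of the 49, beside 11.8% of all tested probes. The median difference was -0.15, beside -0.083 over all tested probes, with 14 positive and 35 negative. The share of negative values over all tested probes is not given here, so nothing is read from this split.

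Chrna2, a nicotinic subunit found mainly in neurons, had -3.63, -3.22 and -2.49 in diabetic kidneys and -5.20, -4.98 and -5.99 in Bailing Capsule kidneys. The groups did not overlap, and the gene was well above background on all 3 diabetic arrays but on 1 Bailing Capsule array. It thus passed the filter only through the diabetic group, where it was brighter. That filter favours a call in this direction, so the call is not used as support. The means were -3.11 ± 0.58 and -5.39 ± 0.53 (SD, n = 3). limma gave a difference of -2.28 (SE 0.37, adjusted p = 0.0361), whose size is imprecise since 2 of the 3 Bailing Capsule signals were not well above background. This call rests on how the data were handled: the adjusted p was 0.288 with slide as a block, at -1.76, and 0.317 with normexp, at -0.49. Leaving out 1 array ended it for diabetic replicate 2 (0.183) and 3 (0.142) and for Bailing Capsule replicate 2 (0.087) and 3 (0.105), and over all alternatives it ran from 0.0108 to 0.654.

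The other nicotinic subunits were mostly below background. Of the 15 subunit probes 9 were well above background on no array, among them those of Chrna3, Chrna4, Chrna5 and Chrnb2, which build neuronal receptors. Chrna1 and Chrnb1, subunits of the muscle receptor, and Chrnb4 were well above background on all 6 arrays. Their differences were -0.26, 0.0017 and -0.065, and the sign of Chrna1 turned with slide as a block. Of the muscarinic genes, Chrm2 had -0.53 with 1 probe that was well above background on every array, and its further probe was on none. Chrm4 had -0.15, and Chrm5 was not well above background on any array. The differences of Chrm2 and Chrm4 also turned in sign under the slide block, at 0.077 and 0.26.

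Of the 6 synthesis and storage genes 4 were tested and none passed, with 1 of the 4 at an unadjusted p under 0.05 in limma. Chat, which makes acetylcholine from choline and acetyl-CoA, had -3.64, -3.73 and -3.44 in diabetic kidneys and -3.26, -3.65 and -3.36 in Bailing Capsule kidneys, a difference of 0.18 (SE 0.24) with overlapping groups. Slc18a3, the vesicular acetylcholine transporter, had 0.15 (SE 0.35). Both were well above background on all 6 arrays. Slc5a7, the high-affinity choline transporter of nerve endings, was on none. Crat, carnitine acetyltransferase, had -0.72 (SE 0.32), and its limma adjusted p was 0.643.

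Choline metabolism held the largest uncalled difference of these lists. Bhmt, which uses the choline product betaine to remethylate homocysteine, had 7.14, 8.01 and 6.95 in diabetic kidneys and 6.36, 5.75 and 5.47 in Bailing Capsule kidneys. The groups did not overlap, and limma gave -1.50 (SE 0.35, adjusted p = 0.153). Bhmt passed when Bailing Capsule replicate 1 was left out (-1.75, limma adjusted p = 0.0402), and under the 16 alternatives its adjusted p ran from there to 0.9998. Pemt, which methylates phosphatidylethanolamine to phosphatidylcholine, had -0.99 (limma adjusted p = 0.267) with 1 Bailing Capsule array well above background. Pemt passed the filter only through its diabetic arrays, where it was brighter. Both enzymes are abundant in liver, and the summed liver markers given above were lower in the same arrays. Bhmt, at means of 7.36 and 5.86, was far brighter than the liver markers Apoc3 (1.05 and 0.13) and Alb (-2.69 and -4.06). The part of liver RNA in these values was not tested. Of 10 tested choline metabolism probes 8 were negative, with a median of -0.27, and nothing is read from this count.

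Among transporters, Slc44a1, a choline transporter of the plasma membrane, had 0.89 (SE 0.30, adjusted p = 0.404) and Slc44a4 -0.52. The list's 8 tested probes had a median of -0.17. Of the receptor helpers, Ly6h and Lypd1, which encode Ly6 proteins that bind nicotinic receptors, had -0.98 and -0.62 (adjusted p = 0.440 and 0.701 in limma). Ly6h passed the filter only through its diabetic arrays, where it was brighter. In muscarinic signalling, Plcb4, a phospholipase C beta, had 0.79 (adjusted p = 0.561) and Rgs2, which restrains Gq signalling, 0.38. The cholinesterase-like adhesion genes Nlgn2 and Nlgn3 had -0.39 and -0.033. Nlgn2 turned in sign with normexp, and Nlgn3 under most alternatives. A further, much dimmer Nlgn2 probe had -0.89, was well above background on 1 diabetic array only and was not tested. Further probes of Slc44a1 and Ly6h were well above background on no array.

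**Figure D4:**
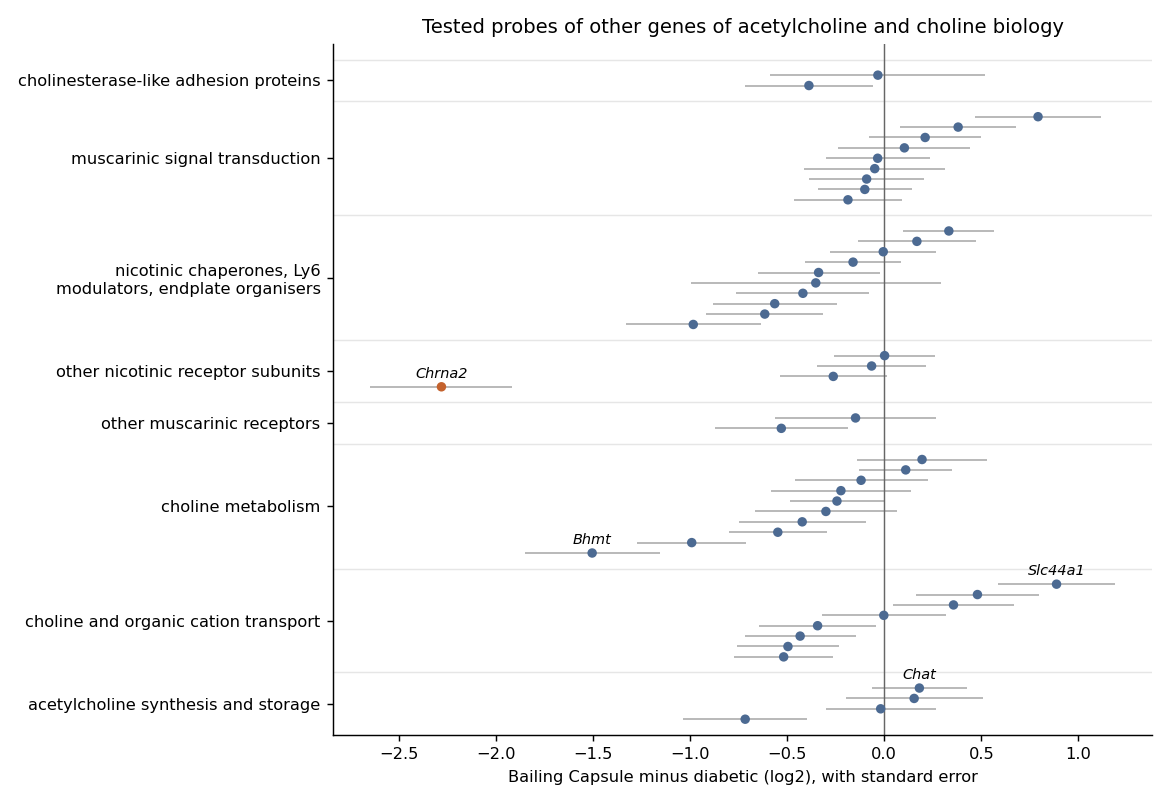
Bailing Capsule minus diabetic log2 difference of the 49 tested probes of genes outside the 7 members, with the standard error from limma, by list. Orange marks the 1 called probe, of Chrna2, at -2.28. The other 48 lie between -1.50 (Bhmt) and 0.89 (Slc44a1).

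Markers of tissues that carry these genes were set beside them. The 12 autonomic nerve markers on the array summed to 1.50 to 1.95 in diabetic and 1.80 to 2.30 in Bailing Capsule kidneys, which overlap; 6 were well above background on all 6 arrays, and Dbh and Nefl on none. Schwann cell markers, over 5 genes with a value on every array, gave -0.67 to -0.32 and -0.49 to -0.040. Among these 5, only Mbp did not overlap between groups, with a difference of 0.99. That sum leaves out the brightest Schwann cell markers, Sox10 (means 6.37 and 6.27) and S100b (1.97 and 2.64), which lacked values on some diabetic arrays. It is thus not the level of the whole list. Of the adrenal medulla markers 2 of 4 were well above background throughout, at -3.22 to -2.42 and -2.91 to -2.47. Red cells carry acetylcholinesterase. The sum of 5 red cell markers was 4.72 to 5.52 in diabetic and 5.53 to 6.11 in Bailing Capsule kidneys, so the groups nearly met. Hbb-b1, the brightest of the 5, overlapped, reaching 5.42 in diabetic kidneys and falling to 5.39 in Bailing Capsule kidneys. Of the 5 markers Epb42 was well above background on no array, and Slc4a1 is also a kidney gene. The part of these cells in the member values was not tested.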

How the data were processed

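The authors deposited 1 Agilent Feature Extraction file per sample and a table of processed values. Per the file headers, Feature Extraction 11.0.1.1 read the scans of a G2505C scanner and gave a background-subtracted, detrended intensity per spot with no scaling between arrays. The deposited log2 table had nearly equal column medians, 5.05 to 5.06. It matched each array (r = 0.982 to 0.994) and served as an alternative. The sources used here do not give its steps or centring. The 0 or 1 detection flags per spot are deposited too, in other columns.

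Outlier spots were left out, spots of a probe averaged, and log2 processed signal set against the array's 75th percentile. A probe was well above background where at least 50% of its spots were flagged so. Accessions, without versions, named 18005 of 30367 probes. Each probe was tested on its own with limma 3.58.1 in R 4.3.3 and Benjamini-Hochberg adjustment over 19871 probes, called under 0.05. The fold given for Bche sets the brighter group's mean against the dim group's mean. Each array of the dim group was first raised, where lower, to the dimmest signal flagged there as well above background. The test was tried on simulated arrays. Summed marker levels are log2 sums of relative signals over 1 probe per gene with a value on every array.

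The members and lists were chosen with earlier results of these data known. Named genes were all member probes, called probes, the 2 lowest p in each list, and receptor, Chat, Slc18a3 and Slc5a7 probes by detection. The 5 genes most like A_64_P067000 of Prima1 were named too. The files held a median in place of a mean spot signal, which entered normexp (offset 50). Alternatives were other scaling, the deposited values, other filters, outlier spots kept, slide or replicate blocks, and leaving out each array.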

Additional observations from a re-analysis of the deposited data

How the results depend on the processing

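The difference of A_64_P067000 of Prima1 lay between 3.47 (normexp with quantile normalization) and 4.91 (slide as a block and within slide 1, the same contrast). Filters on probes and the replicate block cannot change it. It ran from 4.37 to 4.81 with 1 array left out; with groups that do not overlap, leaving out an array cannot turn the sign. A_44_P262958 had 0.087 in place of -0.27 with slide as a block and within slide 1, and -0.46 to -0.13 with 1 array left out. A slide-blocked value rests on 1 diabetic array. The dim members moved more, with Bche from 0.12 to 1.57, Colq from -2.08 to -0.10, Chrm1 from -2.27 to 0.88 and Chrna7 from -1.58 to 0.74.

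Over the whole array, 58 probes were called, and 18 with normexp, 8 with no filter, 37 with a filter on all 6 arrays, 10 within slide 1, 8 with a replicate block (replicate numbers), and 19 to 208 with 1 array left out (208 without diabetic replicate 1, 141 without Bailing Capsule replicate 1). Calls higher were 23 of 58, against 26 of 49 in the deposited values and 31 of 44 with slide as a block. The 1 call in the wider lists, Chrna2, became 0 with normexp, with the deposited values, with no filter, with a filter on all 6 arrays (where Chrna2 was not tested), with outlier spots kept, with slide as a block, within slide 1 and with the replicate block, and 0 to 2 with 1 array left out. Apart from the number of arrays and probes tested, the cause was not tested. Same-numbered samples deviated with correlations of -0.18, -0.14 and 0.020, so the numbers showed no pairing.

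Uncalled differences turned in sign with slide as a block and within slide 1 for Chrm2 (0.077), Chrm4 (0.26), Chrna1 (0.12) and Nlgn3 (1.50), and with normexp for Nlgn2 (0.062) and Nlgn3 (0.011). Nlgn3 also had 0.018 with quantile normalization and 0.022 with outlier spots kept. With 1 array left out, Chrm4 ran from -0.63 to 0.11 and Nlgn3 from -0.80 to 0.44. The fits kept 5 arrays or fewer there, and a lone array is assumed to vary like the rest. Members below background are limited by their signal over background.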

Other observations

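Genes next to Prima1 in the GRCr8 gene order were examined after the Prima1 values had been seen, taking the nearest 4 tested genes on each side. None of their 10 probes was called by limma, beside 0.292% of all tested probes. On one side, Btbd7, Ubr7, Gon7 and Itpk1 had differences between -0.32 and 0.56 over 6 probes. On the other, Asb2, which encodes a subunit of a ubiquitin ligase, had -0.0027, Otub2, a deubiquitinase, 0.17 and Ddx24, an RNA helicase, 0.15. Ifi27, an interferon-induced gene 5 places from Prima1, had 1.04 (SE 0.47, limma adjusted p = 0.657), from 4.25 ± 1.08 to 5.29 ± 0.47 (log2, SD), with a value missing on 1 array or more. Of the 9 probes with a value on every array, groups overlapped for all 9.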
